A study of Mus musculus with 6 samples.

Results

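The transcription factor p53, encoded in the mouse by Trp53, together with 32 genes of its network was followed in NIH3T3 cells, an immortalised line of mouse embryo fibroblasts. These 33 genes are Trp53, its inhibitors and genes known as p53 targets, leaving aside the Bcl-2 family and the inhibitors of cyclin-dependent kinases. All 33 were found by symbol among the 21878 genes of the deposited table. Per the labels, a radiation injury was common to the cells of all libraries. One group of 3 libraries came from cells treated with plasma-derived exosomes, which are membrane-bound vesicles released by cells, and the other group of 3 from cells given phosphate-buffered saline (PBS), both at 72 h. Neither the radiation dose nor the origin of the plasma is in the labels, and unirradiated cells were not analysed here, so the comparison is between treatments of irradiated cells and not of radiation itself. Since nothing in the labels ties the libraries to separate cultures, the p-values reflect only how far these libraries scatter, and that scatter may be technical.

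In unstressed cells p53 protein is kept scarce by Mdm2, a ubiquitin ligase, and by its partner Mdm4, which blocks the p53 activation domain. Ionising radiation breaks DNA, and the kinases that sense the breaks release p53 from these inhibitors. p53 then binds DNA as a tetramer and switches on genes for cell cycle arrest, DNA repair, antioxidant defence, apoptosis and its own inhibition, Mdm2 among them. Much of the control of p53 lies in its protein, so an mRNA level is not a measure of p53 activity. NIH3T3 cells are known to lack the Ink4a/Arf locus, whose product p19Arf restrains Mdm2. Cdkn2a, the gene of that locus, was listed at 0 FPKM in all 6 libraries, and was singled out after its values were seen.

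p53 binds sites built from paired copies of a motif of 10 bases, called a p53 decamer here. RefSeq promoters (build GRCm38.p6) were at hand for 26 of the 33 members, and the 250 bases before each start were searched on both strands for the decamer with no mismatch. A decamer was found for 10 of the 26 members (38.5%) and for 8.20% of the 27025 genes in the promoter table. These were Trp53, Mdm2, Ppm1d, Ccng1, Gadd45a, Ckap2, Sesn1, Ei24, Aen and Polk. Most members are on the list because they are known as p53 targets, so a higher share of decamers follows from that choice. The 27025 genes include many that were not tested here. A pair of decamers at most 13 bases apart was found for 0 of the 26 members and 0.0666% of all genes, and many known p53 sites lie outside this window, the one of Mdm2 in its first intron among them. The stretches below show the decamer in capitals, 5′ to 3′ on the strand of the gene, for Trp53, its inhibitor Mdm2 and 3 targets whose levels were higher or did not pass the test: Trp53 (chr11:69580259-69580318, plus strand), Mdm2 (chr10:117710910-117710969, minus strand), Gadd45a (chr6:67037413-67037472, minus strand), Ccng1 (chr11:40755437-40755496, minus strand) and Ei24 (chr9:36797335-36797394, minus strand).
Trp53: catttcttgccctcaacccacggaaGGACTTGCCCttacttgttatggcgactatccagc
Mdm2: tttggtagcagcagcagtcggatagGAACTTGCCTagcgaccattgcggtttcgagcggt
Gadd45a: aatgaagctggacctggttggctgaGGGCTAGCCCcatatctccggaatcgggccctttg
Ccng1: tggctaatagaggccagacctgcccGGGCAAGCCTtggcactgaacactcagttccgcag
Ei24: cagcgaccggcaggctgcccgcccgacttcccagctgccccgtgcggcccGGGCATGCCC
Trp53 and Mdm2 were lower and Gadd45a was higher with exosomes, while Ccng1 and Ei24 did not pass the test. Aen, which was lowered, and Ppm1d, Ckap2, Sesn1 and Polk, which did not pass, also held a decamer and are not printed. Of the 8 lowered members with a promoter entry, 3 held a decamer, as did 1 of the 4 raised and 6 of the 14 that did not pass. A match is a description of the letters only, and the values below were measured on another build, mm9.

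Expression was read as FPKM, a level per unit of transcript length that is scaled to each library's total of fragments. The deposited means of normalized counts summed to 20341541 for PBS and 19824812 for exosomes, and between 10080 and 10271 genes reached 1 FPKM in a library. Fibroblast markers, among them the collagens Col1a1, Col1a2 and Col3a1, summed to 6752 to 7024 FPKM in exosome libraries and 5917 to 6169 in PBS libraries, with 9 of 10 markers above 1 FPKM and Fap under it. The markers did not move together. In the test described below, 4 of 9 were called higher with exosomes (Col1a1, Col1a2, Col3a1 and Pdgfra). Another 3 were called lower (Fn1, Pdgfrb and S100a4), and Vim and Thy1 did not pass. Markers of endothelial and epithelial cells each summed to at most 0.558 FPKM in a library. Markers of red cells and platelets, 8 of the 10 listed being in the table, summed to 3.86 to 4.60 FPKM with exosomes and 2.65 to 4.99 with PBS. The 10 leukocyte markers summed to 4.46 to 5.32 FPKM with exosomes and 7.41 to 12 with PBS, mostly from Cd14, Csf1r and Cd68, while Ptprc, which defines leukocytes, was at most 0.0876 FPKM and Cd3e and Fcgr3 were listed at 0 in all 6 libraries. PBS replicate 3 had the highest leukocyte sum and was the lowest PBS library for 22 of 32 members, against 43.1% of all tested genes. Fits without that library are given below, and the part of the leukocyte sum in the changes described here was not tested.

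The p53 genes moved in both directions with exosomes, mostly by small amounts. A gene entered the limma test if 3 or more libraries held it at 1 FPKM or above, and the test was run on log2(FPKM + 1). A gene with an adjusted p under 0.05 is called raised or lowered. Of the 33 members 32 could be tested, and 9 of them were lowered, 7 raised and 16 did not pass. With their Entrez identifiers, the lowered genes were Trp53 (22059), Mdm2 (17246), Btg2 (12227), Plk3 (12795), Gtse1 (29870), Tnfrsf10b (21933), Eda2r (245527), Aen (68048) and Phlda3 (27280). The raised genes were Mdm4 (17248), Trp53inp1 (60599), Gadd45a (13197), Gadd45b (17873), Sesn3 (75747), Ddb2 (107986) and Xpc (22591). These are 16 calls among 32 tested members, and 43.8% of all 10274 tested genes were called (18.4% lowered and 25.4% raised), so the share of members called was near that of genes in general. The same shares are the background for the counts of each smaller group and list below. For the members as a whole, further values were as follows. The members' median log2 change was −0.043, beside 0.036 over all tested genes, and their median absolute change was 0.18, beside 0.15. Called changes of at least 0.5 on the log2 scale were found in 3 members, Plk3, Gadd45a and Sesn3, while 6.97% of all tested genes had one. Aen (−0.49) and Ddb2 (0.49) fell just short of that size, and the pseudocount of 1 shrinks changes. On the deposited normalized counts, Aen (−0.55), Ddb2 (0.55) and Gtse1 (−0.51) also reached it. The group ranges did not overlap in 17 of the 32 tested members, against 55.6% of all tested genes. Of the calls, 6 lowered and 6 raised held under each of the 15 alternatives that could test them (Ddb2 was under the stricter filter of 5 FPKM), and those of Gadd45b, Tnfrsf10b, Eda2r and Phlda3 did not. Plk3 and Gtse1 met that stricter filter only through the PBS libraries, and Xpc only through the exosome libraries. PBS replicate 3 was the lowest PBS library in each of the 7 raised members and in 43.1% of all tested genes. Without it, 13 members were lowered and 6 raised. Over all 10274 tested genes 1715 were then lowered and 2222 raised, beside 1889 and 2612 with all libraries. In bulk RNA, fewer cells that express a gene and less RNA per cell cannot be told apart.

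**Figure D1:**
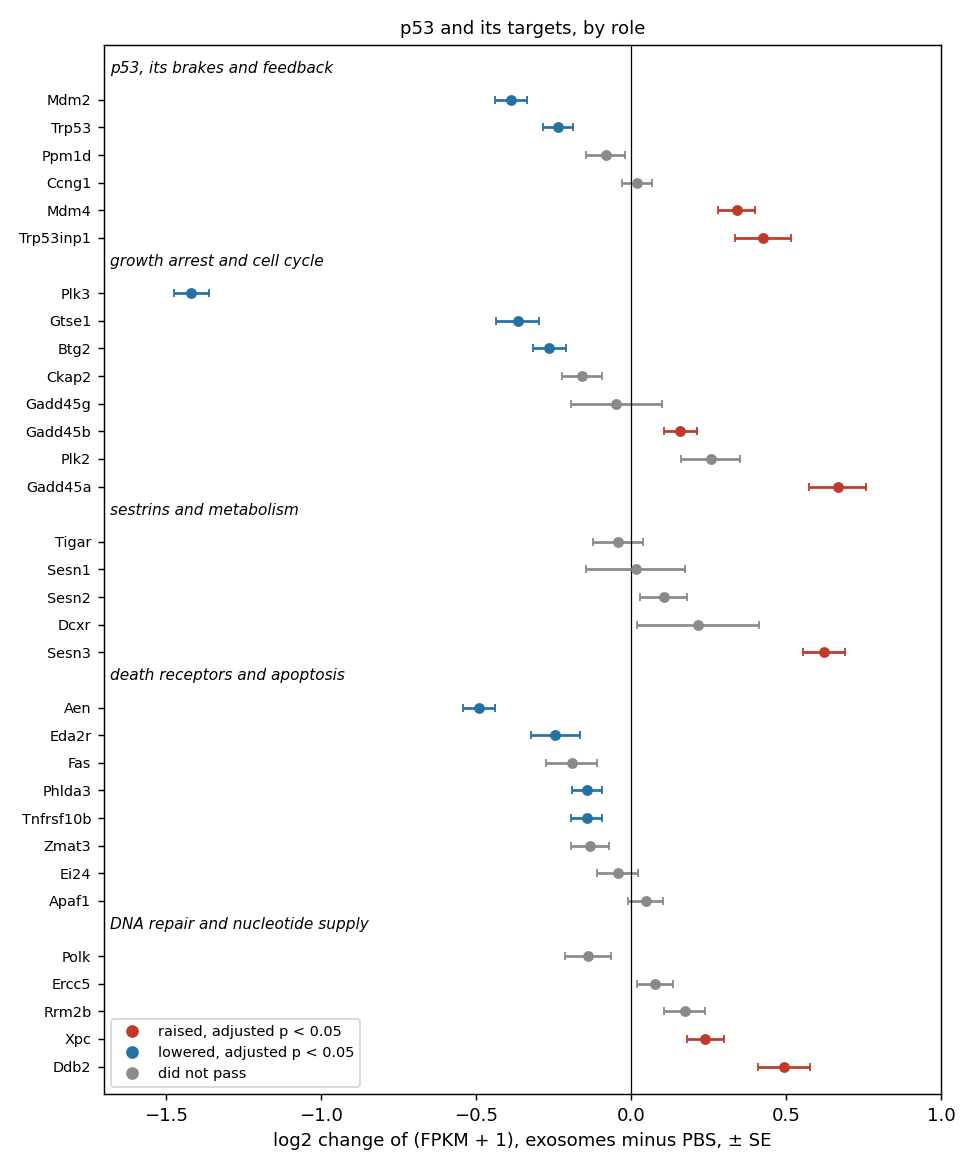
Log2 change of FPKM + 1 (exosomes minus PBS, points) with its SE (bars) for the 32 tested members, grouped by role and coloured by the limma call. Plk3 stands alone at −1.42, and the other 31 members lie between −0.49 and 0.67.

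Of the 6 genes for p53, its inhibitors and its feedback, 2 were lowered, 2 raised and 2 did not pass, with a median log2 change of −0.031. The mRNA of p53 itself was slightly lower with exosomes. Trp53 measured 50.2, 48.1 and 46.3 FPKM in the PBS libraries (replicates 1, 2 and 3, in this order throughout) and 42.2, 40.9 and 39.2 in the exosome libraries, so that each exosome library lay below each PBS library. The means were 48.2 ± 1.93 FPKM with PBS and 40.8 ± 1.53 with exosomes (SD, n = 3), a log2 change of −0.24 ± 0.048 (SE, limma adjusted p = 0.00389). The authors' deposited table, made from counts, gives a fold of 0.780 (adjusted p = 3.08e-07).

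The inhibitors of p53 moved in opposite directions. Mdm2, which marks p53 for destruction and is itself induced by it, had 15.5, 14.7 and 15.1 FPKM in the PBS libraries and 11.4, 11.8 and 10.7 in the exosome libraries, a log2 change of −0.39 ± 0.052 (adjusted p = 0.000394). Mdm4, its relative that masks p53 without a ligase activity of its own, had 20.7, 21.6 and 20.6 FPKM with PBS and 27.2, 28.7 and 24.7 with exosomes, a rise of 0.34 ± 0.059 (adjusted p = 0.00163). Neither gene's groups overlapped. The FPKM of Mdm4 divided by that of Mdm2 was 1.34, 1.47 and 1.37 in the PBS libraries and 2.37, 2.44 and 2.31 in the exosome libraries, a difference of 0.77 on the log2 scale. In an exact two-sided permutation test over the libraries this ratio had p = 0.1 (adjusted p = 0.12 over the 6 ratios compared), and 0.1 is the smallest p that 3 against 3 allow. The 6 ratios between members were chosen after their values were seen.

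**Figure D2:**
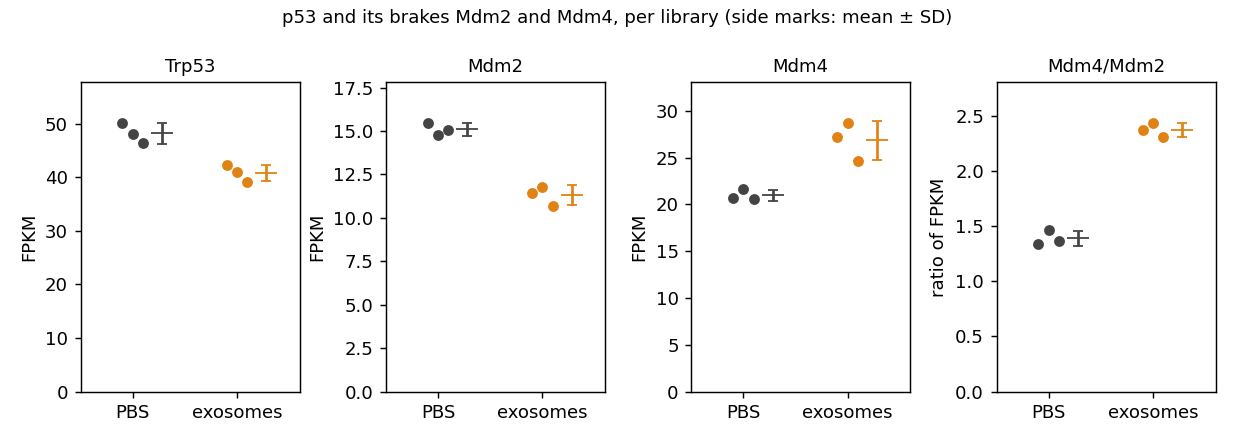
FPKM of Trp53, Mdm2 and Mdm4 and the ratio of Mdm4 to Mdm2 in each library (points), with the group mean and SD (side marks, n = 3), on axes that start at 0. The PBS and exosome points do not overlap in any panel, and the ratio is 1.39 ± 0.0672 with PBS and 2.37 ± 0.0657 with exosomes.

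The other feedback genes split into 1 raised and 2 that did not pass. Trp53inp1, a stress protein that promotes phosphorylation of p53 and takes part in autophagy, had 12.97, 12.8 and 9.80 FPKM with PBS and 16.0, 16.2 and 16.2 with exosomes (log2 change 0.43 ± 0.090, adjusted p = 0.00491). The exosome libraries lay close together, and the PBS libraries were spread by PBS replicate 3, the lowest. Ccng1, cyclin G1, an early p53 target that recruits a phosphatase to Mdm2, had the highest level of the members per length, at 84.8 ± 3.75 FPKM with PBS and 85.9 ± 3.12 with exosomes. Its log2 change was 0.020 ± 0.049 (adjusted p = 0.763), and the authors' deposited table gives mean normalized counts of 7768 and 7782 in the same order. Ppm1d, the phosphatase Wip1 that switches the p53 response off, was at 5.92 ± 0.469 FPKM with PBS and 5.53 ± 0.130 with exosomes (log2 change −0.082 ± 0.063, adjusted p = 0.318).

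Of the 8 members of growth arrest and the cell cycle, 3 were lowered, 2 raised and 3 did not pass, with a median log2 change of −0.10. The polo-like kinase gene Plk3 fell and Gadd45a rose. Plk3, a kinase of the stress response that can phosphorylate p53 and that growth factors induce as an immediate early gene, had 12.2, 11.5 and 11.9 FPKM in the PBS libraries and 3.88, 3.55 and 4.00 in the exosome libraries. The groups were thus far apart, with little spread within either. Mean FPKM was 3.11-fold lower with exosomes, with a log2 change of −1.42 ± 0.057 (limma adjusted p = 5.37e-07), the 38th largest absolute change among the 10274 genes. The authors' deposited table gives a fold of 0.291 from mean normalized counts of 677 with PBS and 197 with exosomes.

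Plk2, the related kinase gene that is also a p53 target, did not pass, with 44.5, 48.2 and 36.8 FPKM with PBS and 47.8, 51.4 and 55.4 with exosomes (log2 change 0.26 ± 0.095, adjusted p = 0.0550). Its groups overlapped, and without PBS replicate 2 it was called raised (0.34, adjusted p = 0.0143). Without PBS replicate 3, its lowest library, the change was 0.15 (adjusted p = 0.107), and without exosome replicate 3 it was 0.20 (adjusted p = 0.167). The ratio of Plk2 to Plk3 FPKM went from 3.66, 4.18 and 3.08 in the PBS libraries to 12.3, 14.5 and 13.8 in the exosome libraries (log2 difference 1.90, exact permutation p = 0.1, adjusted p = 0.12).

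The 3 Gadd45 genes encode small stress proteins that bind cyclin-dependent kinase 1 and act in DNA repair and MAP kinase signalling. Gadd45a, the member of the family known best as a p53 target, had 7.85, 8.63 and 6.29 FPKM with PBS and 12.1, 13 and 12.5 with exosomes (log2 change 0.67 ± 0.092, adjusted p = 0.000531), with every exosome library above every PBS library. Gadd45b had 13.7, 12.8 and 12.3 FPKM with PBS and 14.7, 14.1 and 14.8 with exosomes. Its small rise of 0.16 ± 0.053 (adjusted p = 0.0356) was lost in 8 of the 15 alternatives, among them the authors' deposited table (fold 1.10, adjusted p = 0.400). Gadd45g had 6.67, 6.59 and 4.06 FPKM with PBS and 5.49, 5.19 and 5.64 with exosomes, with overlapping groups (log2 change −0.047 ± 0.15, adjusted p = 0.813). Its PBS replicate 3 lay below the exosome libraries and the other PBS libraries above them, and without that library Gadd45g was called lowered (−0.25, adjusted p = 0.0135). The ratio of Gadd45a to Gadd45b was 0.575, 0.676 and 0.513 in the PBS libraries and 0.829, 0.925 and 0.845 in the exosome libraries, and that of Gadd45a to Gadd45g was 1.18, 1.31 and 1.55 with PBS and 2.21, 2.51 and 2.22 with exosomes (exact permutation p = 0.1 and adjusted p = 0.12 for each).

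Btg2, an antiproliferative p53 target that acts on mRNA deadenylation, fell. It had 21.5, 19.4 and 19.5 FPKM with PBS and 16.3, 16.6 and 16.9 with exosomes (log2 change −0.26 ± 0.053, adjusted p = 0.00352), and the exosome libraries were closer to each other than the PBS libraries. Btg2 and Plk2 are also known to be induced by growth factors, and the promoters of both hold the cyclic AMP response element TGACGTCA, searched on both strands. That element was found for 3 of 26 members, Ppm1d being the third, and for 1.77% of all genes. The AP-1 site TGANTCA was found for Mdm4 and Fas, 7.69% of the members with a promoter, and for 7.82% of all genes. The stretches that hold the element, in capitals, are chr1:134079287-134079346, minus strand, for Btg2 and chr13:110394957-110395016, plus strand, for Plk2.
Btg2: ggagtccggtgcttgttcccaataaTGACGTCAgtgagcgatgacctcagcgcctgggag
Plk2: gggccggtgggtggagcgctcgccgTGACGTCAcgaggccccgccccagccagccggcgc
No match says only that these letters are not in this window.

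Plk3 and Btg2 were lower, while Plk2, also induced by growth factors, did not pass (log2 changes −1.42, −0.26 and 0.26). Immediate early genes were mostly lower. Of 20 such genes, a list that holds no member, 17 were lowered, 1 was raised and 2 did not pass, with a median log2 change of −1.25. Over all tested genes 18.4% were lowered and 25.4% raised. Ier3, a stress-induced survival gene, changed by −2.66 ± 0.13 and Fos, an AP-1 subunit, by −2.41 ± 0.071 (adjusted p = 5.60e-06 and 1.85e-07). Egr1, a zinc finger factor, went from 82.9 ± 11.5 to 18.7 ± 4.67 FPKM and Junb, another AP-1 subunit, from 42.2 ± 3.27 to 11.7 ± 1.22 (adjusted p = 0.000312 and 6.90e-07). Their part in the falls of Plk3 and Btg2 was not tested.

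Of the members tied to mitosis, Gtse1 fell and Ckap2 did not pass. Gtse1, a microtubule-binding protein of the late cell cycle that shuttles p53 out of the nucleus, had 6.62, 5.73 and 5.41 FPKM with PBS and 4.32, 4.36 and 4.38 with exosomes (log2 change −0.37 ± 0.070, adjusted p = 0.00279). Ckap2, a spindle protein, had 13.7, 13.2 and 11.6 FPKM with PBS and 10.9, 11.5 and 11.8 with exosomes, and PBS replicate 3 lay within the exosome range (log2 change −0.16 ± 0.064, adjusted p = 0.0717). Without that library Ckap2 was called lowered (−0.22, adjusted p = 0.0139). Of 20 other mitosis genes 2 were lowered, 0 raised and 18 did not pass, with a median log2 change of −0.000195. The 2 were Aurkb, a kinase of chromosome segregation (−0.27 ± 0.082, adjusted p = 0.0248), and Cdk1, the kinase that drives entry into mitosis (−0.20 ± 0.053, adjusted p = 0.0141). Without PBS replicate 1 that count was 0, and without PBS replicate 3 it was 4.

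**Figure D3:**
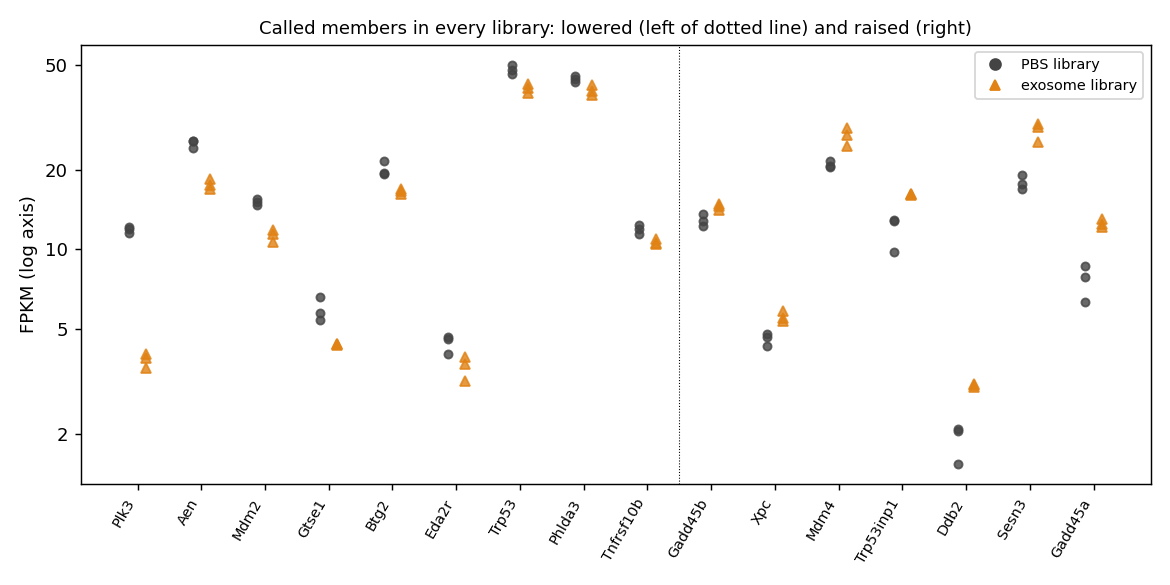
FPKM on a log axis of the 16 called members in the 3 PBS libraries (circles) and the 3 exosome libraries (triangles), with the 9 lowered genes left of the dotted line and the 7 raised genes right of it. No group overlaps the other in these 16 genes, and PBS replicate 3 is the lowest circle in each of the 7 raised genes.

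Of the sestrins, stress proteins that restrain the growth kinase complex mTORC1 and support antioxidant defence, Sesn3 rose and the others did not pass, as none of the metabolic members did, so that 1 of 5 genes in this group was called (median log2 change 0.10). Sesn3, which FOXO factors also induce, had 17.7, 19.2 and 16.9 FPKM with PBS and 25.6, 29.8 and 29.0 with exosomes (log2 change 0.62 ± 0.067, adjusted p = 0.000124). Each exosome library was above each PBS library. Sesn1 ranged from 14.8 to 22.9 FPKM with PBS and from 16.4 to 21.6 with exosomes, the groups overlapping throughout (log2 change 0.014 ± 0.16, adjusted p = 0.949). Sesn2 was at 10.5 ± 0.920 FPKM with PBS and 11.4 ± 1.03 with exosomes (log2 change 0.10 ± 0.076, adjusted p = 0.291). The ratio of Sesn3 to Sesn2 was 1.69, 1.67 and 1.76 in the PBS libraries and 2.29, 2.85 and 2.33 in the exosome libraries, without overlap (exact permutation p = 0.1, adjusted p = 0.12). That of Sesn3 to Sesn1 did overlap, at 1.02, 1.30 and 0.740 against 1.19, 1.73 and 1.77 (exact permutation p = 0.2, adjusted p = 0.2).

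The metabolic members were at low levels. Tigar, a phosphatase that slows glycolysis, was near the filter at 1.05 ± 0.117 FPKM with PBS and 0.994 ± 0.135 with exosomes (adjusted p = 0.696). Dcxr, a sugar and dicarbonyl reductase, had 1.26, 2.63 and 2.81 FPKM with PBS and 2.92, 2.11 and 3.02 with exosomes, and its single low library was PBS replicate 1 (log2 change 0.22 ± 0.20, adjusted p = 0.404). The authors' deposited table lists it as raised, with a fold of 1.34 (adjusted p = 0.0413).

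In the death group no tested member was called raised. Of its 8 tested genes 4 were lowered and 4 did not pass, with a median of −0.14, beside 18.4% lowered and 25.4% raised among all tested genes. Changes below 0 were found in 7 of the 8, and in 4482 of all 10274 tested genes. Aen, an exonuclease that helps digest DNA in apoptosis, changed most, from 25.7, 24.2 and 25.7 FPKM with PBS to 16.9, 18.5 and 17.6 with exosomes (log2 change −0.49 ± 0.051, adjusted p = 9.88e-05). The groups were well apart, and their nearest libraries were at 24.2 and 18.5 FPKM.

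The other lowered genes of this group fell by small amounts, and each of their calls was lost in several alternatives. Eda2r, a receptor for an ectodysplasin, had 4.64, 4.59 and 4.02 FPKM with PBS and 3.16, 3.89 and 3.67 with exosomes (log2 change −0.24 ± 0.078, adjusted p = 0.0300). The mouse death receptor gene for the ligand TRAIL, Tnfrsf10b, had 11.9, 12.4 and 11.4 FPKM with PBS and 10.6, 10.5 and 10.9 with exosomes (−0.14 ± 0.050, adjusted p = 0.0419). Phlda3, which competes with the kinase AKT for membrane lipids, had 44.4, 45.4 and 43.3 FPKM with PBS and 39.8, 38.4 and 42.2 with exosomes (−0.14 ± 0.048, adjusted p = 0.0357). In all 3 genes the exosome libraries lay below the PBS libraries by narrow gaps. The call of Eda2r ended without exosome replicate 1 (adjusted p = 0.103) or PBS replicate 1 (0.103), that of Tnfrsf10b without PBS replicate 2 (0.113) and that of Phlda3 without exosome replicate 2 (0.124), among others.

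Fas, the death receptor gene for Fas ligand, had 3.62, 4.09 and 3.26 FPKM with PBS and 3.36, 3.01 and 2.85 with exosomes, with a small overlap (log2 change −0.19 ± 0.081, adjusted p = 0.0811). It was called lowered with quantile normalization (−0.28, adjusted p = 0.0156) and without PBS replicate 3 (−0.25, adjusted p = 0.0329). Zmat3, an RNA-binding zinc finger protein, Ei24, a protein of the endoplasmic reticulum, and Apaf1, the scaffold of the apoptosome, had log2 changes of −0.13 ± 0.061, −0.044 ± 0.066 and 0.047 ± 0.057 (adjusted p = 0.101, 0.612 and 0.529). Zmat3 was called lowered without exosome replicate 2 (−0.19, adjusted p = 0.0362). Perp, a membrane protein of desmosomes and of p53-dependent death, was the member left untested. It was at most 0.155 FPKM, was listed at 0 in exosome replicate 1, and had a mean normalized count of 3.09 with PBS and 0.616 with exosomes in the authors' deposited table.

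Of the 5 members of DNA repair and nucleotide supply, 2 were raised and 3 did not pass, with a median log2 change of 0.17. The 2 raised genes act in nucleotide excision repair. Ddb2, which recognises ultraviolet damage in chromatin, had 2.05, 2.08 and 1.53 FPKM with PBS and 3.06, 3.00 and 3.07 with exosomes (log2 change 0.49 ± 0.083, adjusted p = 0.00141). Xpc, which opens the damaged helix after it, had 4.75, 4.63 and 4.30 FPKM with PBS and 5.84, 5.49 and 5.35 with exosomes (log2 change 0.24 ± 0.060, adjusted p = 0.0102). In both genes the groups were apart. Ddb2 overlaps Acp2, a lysosomal phosphatase gene, in the RefSeq annotation, and Acp2 was at 13.6 FPKM with exosomes and 10.8 with PBS. No source used here says if the counting took account of strand, so the level of Ddb2 is uncertain to that extent. The same holds for Apaf1, which overlaps Ikbip (33.8 FPKM with PBS and 30.7 with exosomes), while Tctex1d4, which overlaps Plk3, was at most 0.0318 FPKM in either group mean.

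Ercc5, the endonuclease that cuts on the far side of the damage, did not pass, at 7.49 ± 0.109 FPKM with PBS and 7.96 ± 0.597 with exosomes (log2 change 0.077 ± 0.059, adjusted p = 0.318). Rrm2b, the p53-induced subunit of ribonucleotide reductase, had 2.26, 2.20 and 2.13 FPKM with PBS and 2.37, 2.68 and 2.76 with exosomes. It was the only one of the 16 members short of the threshold whose groups did not overlap (log2 change 0.17 ± 0.067, adjusted p = 0.0619), and was called raised without exosome replicate 1 (adjusted p = 0.0384) and by limma without trend and robust estimation (0.0363). Polk, a polymerase that copies past damaged bases, was at 4.29 ± 0.426 FPKM with PBS and 3.79 ± 0.233 with exosomes (log2 change −0.14 ± 0.074, adjusted p = 0.153). The authors' deposited table lists Polk as lowered, with a fold of 0.853 (adjusted p = 0.0326), and it was also called lowered with quantile normalization (−0.21, adjusted p = 0.0345) and without PBS replicate 3 (−0.21, adjusted p = 0.0446).

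Setting the members' changes beside the authors' comparison on counts, 15 of the 16 calls made on FPKM were also past an adjusted p of 0.05 in the authors' deposited table, each in the same direction. That table lists 10 of the 33 members as lowered and 7 as raised, against 13.5% and 12.4% of its 15844 genes with an adjusted p (25.9% in either direction). It includes many genes of low level that the filter on FPKM left out. Over all its genes 1966 were raised and 2140 lowered, while the FPKM test had 2612 raised and 1889 lowered, so the balance of directions differed between the 2 tests. The log2 change was smaller on the FPKM scale for Plk3 (−1.42 against −1.78), a difference to which the pseudocount contributes by construction. Some members of higher level differed too, Trp53 (−0.24 against −0.36) and Phlda3 (−0.14 against −0.21), while Mdm4 hardly did (0.34 against 0.33). The genes tested on FPKM had a median log2 change of 0.036 there and of −0.0062 in the authors' deposited table. The cause of these differences was not tested.

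**Figure D4:**
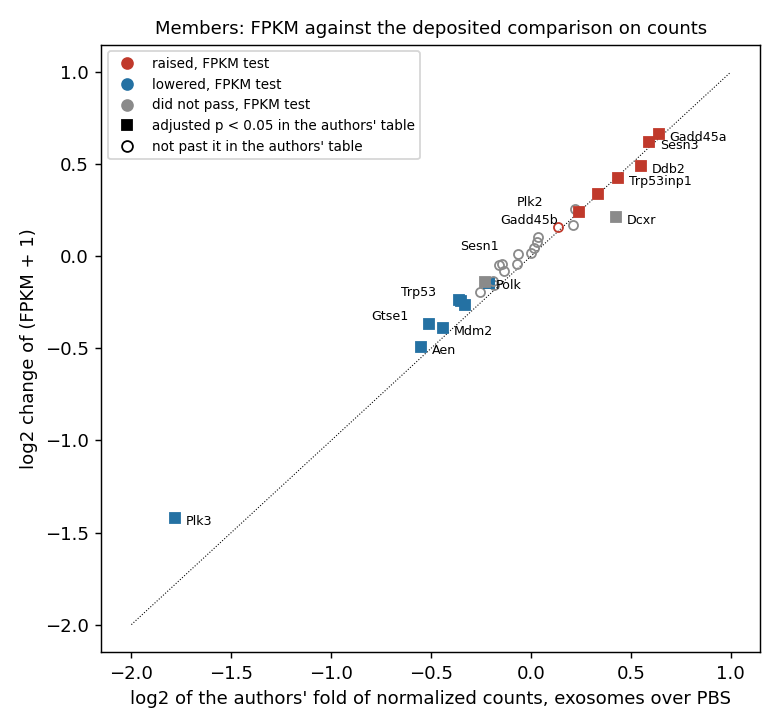
Log2 change of FPKM + 1 against the log2 fold of normalized counts in the authors' deposited table for the 32 tested members, with the line of equal values dotted, colour for the call on FPKM and filled squares for an adjusted p under 0.05 in that table. Dcxr and Polk are squares without a call on FPKM, and Gadd45b is the open circle with a call.

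The p53 targets that belong to the Bcl-2 family or inhibit cyclin-dependent kinases were lower in 3 of 4 tested genes, while 18.4% of all tested genes were lowered. The list is short and was chosen with earlier results of these data known. Cdkn1a, which encodes the inhibitor p21, had 104, 107 and 98.0 FPKM with PBS and 75.9, 74.6 and 75.5 with exosomes (−0.44 ± 0.045, adjusted p = 7.90e-05). Bax, a pore former of mitochondrial apoptosis, had 11.8, 11.6 and 13.1 FPKM with PBS and 10.3, 9.38 and 9.71 with exosomes (−0.28 ± 0.060, adjusted p = 0.00485), and Bid, which activates it, changed by −0.37 ± 0.074 (adjusted p = 0.00335). Bbc3, the death gene Puma, had overlapping groups, at 1.10, 1.31 and 0.688 FPKM with PBS and 1.48, 1.18 and 1.82 with exosomes (0.30 ± 0.13, adjusted p = 0.0898). Pmaip1, the death gene Noxa, was under the filter, at 0.459 ± 0.115 FPKM with PBS and 0.318 ± 0.142 with exosomes.

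A further 29 genes known as p53 targets also moved both ways. Of 24 tested, 6 were lowered, 7 raised and 11 did not pass, with a median log2 change of 0.033. Bhlhe40, a repressor tied to the clock and to hypoxia, and Lif, a cytokine, changed by −1.45 ± 0.056 and −1.02 ± 0.077 (adjusted p = 4.84e-07 and 1.22e-05). Both genes are also induced by other signals, such as growth factors, hypoxia or cytokines. Lif met the filter only through the PBS libraries, at 2.17, 1.79 and 2.18 FPKM, against 0.444, 0.535 and 0.506 with exosomes. At these low levels the pseudocount of 1 shrinks its change, and the authors' deposited table gives a fold of 0.233. Sulf2, a sulfatase of heparan sulfate chains, went the other way, from 12.8, 16.1 and 10.5 FPKM with PBS to 29.6, 31.2 and 35.5 with exosomes (1.24 ± 0.13, adjusted p = 0.000280).

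Among regulators of p53, 3 of 19 tested were lowered, 4 raised and 12 did not pass, with a median of −0.015. Ppp1r13l, the inhibitory ASPP protein, changed by −0.41 ± 0.063 and Usp7, a deubiquitinase of Mdm2 and p53, by −0.24 ± 0.044 on the log2 scale (adjusted p = 0.000830 and 0.00219). Ppp1r13b, the activating relative ASPP1, rose by 0.24 ± 0.079 and Trp53bp1, a scaffold at DNA breaks, by 0.23 ± 0.057 (adjusted p = 0.0363 and 0.00956). The count of 4 raised was 2 without exosome replicate 1, exosome replicate 3 or PBS replicate 1. The p53 relatives Trp63 and Trp73 were under the filter, Trp63 at most 0.412 FPKM and Trp73 at most 0.00818.

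**Figure D5:**
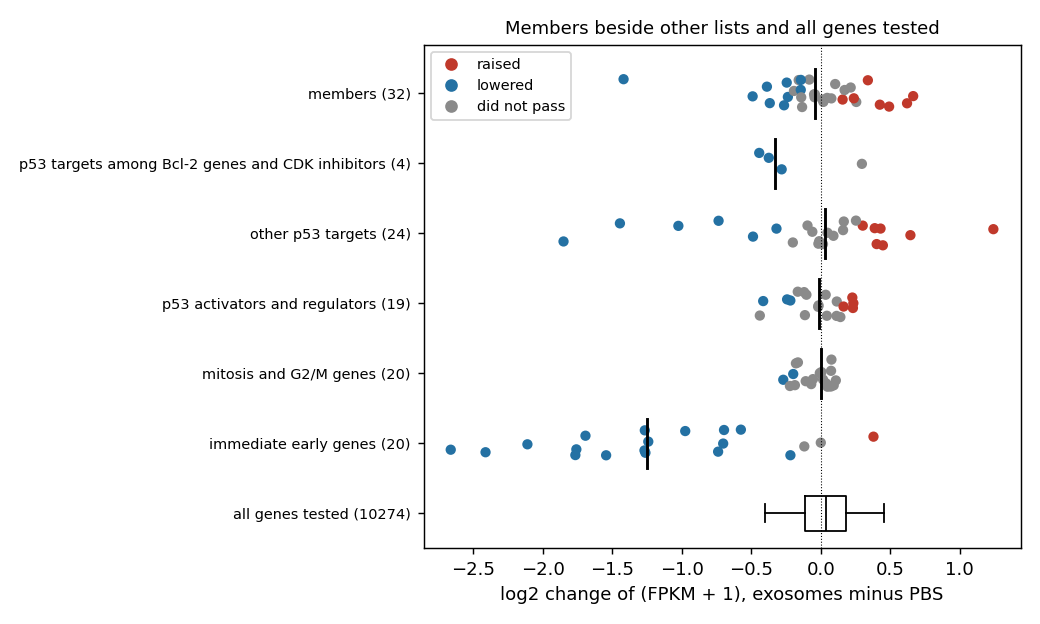
Log2 change of FPKM + 1 (exosomes minus PBS) for each tested gene of the members and 5 other lists, coloured by call, with the list median as a black bar, and over all 10274 tested genes as a box (quartiles, median, whiskers at the 5th and 95th percentiles). The members' median of −0.043 lies beside that of all genes at 0.036, and the immediate early genes' median is −1.25.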

How the data were processed

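RNA was isolated with the mirVana kit and TruSeq Stranded mRNA libraries were read on a HiSeq sequencer, per the labels. The submitters' processing notes list DESeq, HTSeq, Cufflinks, StringTie, HISAT2, Bowtie2, SAMtools and Trimmomatic with the build mm9, and no versions or roles. The values deposited per library were read as FPKM, since the headers say only expression and Cufflinks is named. The authors also deposited a normalized count signal as group means, a linear ratio between the groups (exosomes over PBS), and a p-value with its adjusted value, per the file headers. Counts per library were not used here, so no count test was run and the depth of single libraries was not worked out. In 27 rows a gene name turned into a date was repaired through its Entrez identifier.

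Groups came from the sample titles, and no library repeated the values of another (0 identical pairs). A total of 10274 genes reached 1 FPKM in at least 3 of the 6 libraries and were fitted with limma 3.58.1 in R 4.3.3 on log2(FPKM + 1) with group as the only term, a variance trend and robust estimation, two-sided, and Benjamini-Hochberg adjustment over all tested genes. The pseudocount of 1 shrinks changes of low genes. The fit was tested on simulated data in 5 draws, each with 50 genes changed at each size, far fewer than were called here. It recovered 44.4% of log2 changes of 0.25, 84% of 0.5, 99.2% of 1 and 100% of 2. Of the unchanged genes it called 0.0814%. With so few changed genes the adjusted threshold is stricter than in the data, so these rates do not carry over to it. Changes as small as those of most members that did not pass may still be missed, at a rate not worked out here. Members and gene lists were chosen with earlier results of these data known, and no list was tested as a set. All members are named, with library values for called members and the 5 largest changes among the others, and Gadd45g was added to these after its values were seen. From each wider list up to 4 called genes of largest change are named, with Cdkn1a, Bax, Bbc3 and Pmaip1 always. A gene that this rule would name among the other p53 targets is not reported here. Alternatives changed the pseudocount, filter, scaling, variance model and replicate block, left out each library, or took the authors' comparison.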

Additional observations from a re-analysis of the deposited data

How the results depend on the processing

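The counts of lowered and raised members and of all genes stayed within 1.5 times under each of the 15 alternatives. The genes tested differed, being 7327 with the filter of 5 FPKM, 15504 with no filter and 15844 in the authors' deposited table. The share of all genes called was 43.8% in the main fit and 25.9% in that table. Of 473 member values under an alternative 426 kept direction and side of the threshold, 26 lost a call, 12 gained one and 9 changed sign, and 7 members were not tested with the filter of 5 FPKM. The lost calls were those of Gadd45b, Tnfrsf10b, Eda2r and Phlda3. All 9 changes of sign were in members that were not called, before or under that alternative. Leaving out 1 library at a time, Ccng1 ranged from −0.017 to 0.050, Gadd45g from −0.25 to 0.055, Sesn1 from −0.12 to 0.18, Tigar from −0.090 to 0.0075 and Dcxr from −0.022 to 0.35, and Sesn1 was at −0.062 in the authors' deposited table. The cause was not tested. Same-numbered libraries showed no positive correlation of their deviations across genes (−0.12, −0.02 and −0.29). Exosome replicate 1 with PBS replicate 3 had 0.29, and exosome replicate 3 with PBS replicate 2 had 0.22. Deviations from a group mean are tied to each other, so these values cannot exclude a pairing. With the replicate block 7 members were lowered and 6 raised, the calls of Gadd45b, Tnfrsf10b and Phlda3 being lost. Over all 10274 tested genes 1626 were lowered and 2288 raised with the block. Applying the alternatives to the wider lists was chosen after seeing the data. The 3 lowered regulators of p53 became 1 with a filter of 5 FPKM and 5 with quantile normalization. The 4 raised ones became 2 under those settings, with no filter, with the replicate block and without exosome replicate 1 or 3 or PBS replicate 1. The 2 lowered mitosis genes became 1 under both filters, under the block and without exosome replicate 1 (which gave 1 raised gene), 0 without PBS replicate 1 and 4 without PBS replicate 3. Among the Bcl-2 genes and inhibitors, 1 was raised in place of 0 without PBS replicate 2. FPKM alone do not show how many reads stand behind the low genes.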
